A study of Mus musculus with 2 samples.

Results

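The 44 genes described here encode proteins of the sarcomere, the contractile unit of skeletal muscle, and of the Z-disc that joins neighbouring sarcomeres, with the heavy chains of myosin left out. They were taken by gene symbol from a named list, as every non-control probe that the array design annotates to one of them, 71 probes and 80 spots on each array, out of 35018 gene names in all. All 44 had at least 1 probe well above background on both arrays, and 27 of them had a single probe. No measured value entered the rule, although the list was drawn up with earlier results of these arrays known.

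The data are 2 one-colour arrays, 1 per group, which lay on the same slide. Each held Cy3-labelled total RNA of skeletal muscle from CD2F1/Slc mice, all male and 11 weeks old. The control group had received PBS. The C26 group had received 1000000 colon 26 carcinoma cells in 100 µL of PBS under the skin of the flank, a transplanted tumour model of cancer cachexia (tumour-driven wasting of muscle and fat). The sources used here do not name the muscle, the time from implantation to sampling or any pooling of animals. With 1 array per group there is no replicate check, and neither tests nor p-values are given. Every value describes these arrays, and in bulk tissue fewer fibres of a type and less RNA per fibre cannot be told apart.

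In the sarcomere, thin filaments of actin, tropomyosin, troponin and nebulin slide along thick filaments of myosin and its binding proteins. Thin filaments are anchored in the Z-disc by alpha-actinin, and titin runs from the Z-disc to the M-band, where myomesins crosslink the thick filaments. Calcium binding to troponin C starts contraction, and most of these proteins exist as fast and slow isoforms made by different fibre types. Loss of contractile protein is a hallmark of muscle wasting, through faster breakdown, slower synthesis or both.

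Values are given as the processed signal of a probe, a background-subtracted spot brightness in arbitrary units, and as the log2 ratio of C26 over control after each array was divided by the 75th percentile of its own probe signals (262 for control, 249 for C26). Signals of different probes cannot be set against each other. A gene is represented by its brightest probe well above background on both arrays. The error beside a log2 ratio comes from the error that Feature Extraction, the scanner's software, lists for each signal, carried to the log2 scale. It covers the spots alone, and for a gene with 1 bright spot per array it is 0.20 by construction of that error model.

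As a group, the scaled transcript signals of the 44 genes differed little between the arrays. Each array was scaled to its own signals, so a change in the total RNA of the muscle would not show. Protein was not measured. The median log2 ratio of the 44 genes was 0.07, against 0.04 over all 19776 measured genes, and 41 of the 44 lay within 1.5-fold. None was 2-fold higher or 2-fold lower, where 1.24% and 1.16% of all measured genes were. At 1.5-fold, 2 genes were higher (background 4.34% of measured genes) and 1 was lower (background 4.82%). The members' shares are near or below those of the whole array.

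**Figure D1:**
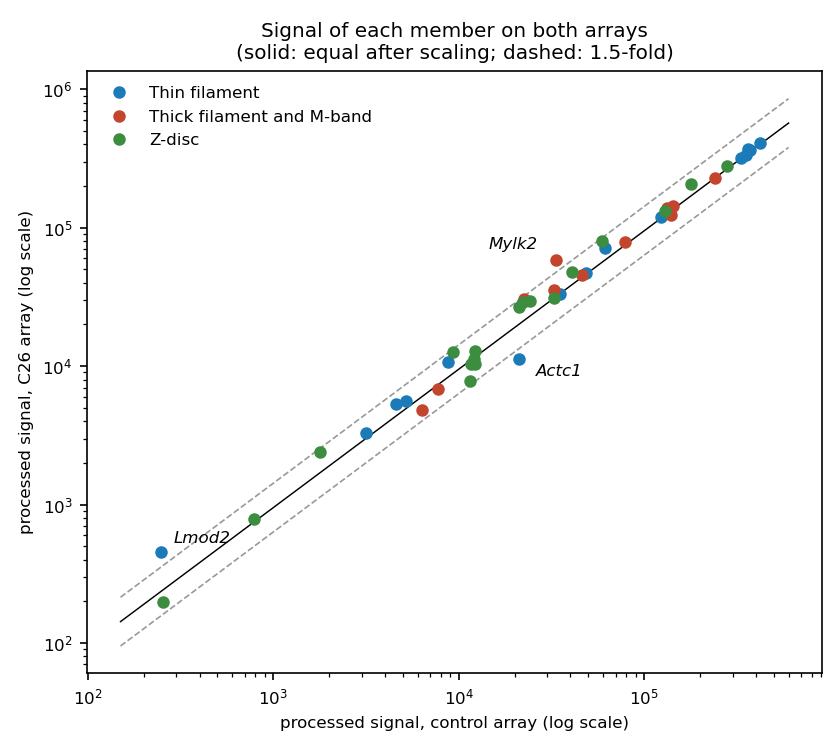
Processed signal of the brightest probe of each of the 44 genes on the control array (x axis) and the C26 array (y axis), both on log scales in arbitrary units, coloured by place in the sarcomere. The solid line marks equal values after scaling and the dashed lines 1.5-fold; Lmod2 and Mylk2 lie above the upper line and Actc1 below the lower one.

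The 3 genes past 1.5-fold are a thin filament protein, a kinase and an actin. Lmod2 encodes leiomodin 2, which nucleates and lengthens actin filaments in striated muscle. Its 1 probe read 249 in control and 456 in C26, a log2 ratio of 0.94 (error 0.21), 1.92-fold higher in C26. Mylk2, the skeletal muscle kinase that phosphorylates the regulatory light chain of myosin, read 33245 in control and 58809 in C26. Its log2 ratio was 0.90 (error 0.20), 1.86-fold higher in C26. Actc1 encodes cardiac alpha-actin, which is also the main sarcomeric actin of embryonic skeletal muscle, and its probe read 21239 in control and 11199 in C26. The log2 ratio of Actc1 was -0.85 (error 0.20), 1.80-fold lower in C26. Each of the 3 rests on 1 probe and 1 spot per array, and each stayed past 1.5-fold in the same direction under all alternative settings, at 0.80 to 0.94, 0.73 to 0.90 and -0.98 to -0.84. With 1 bright probe per gene, the filters on dim probes, the mean over probes and the restriction to RefSeq probes could only return the same value. The deposited table nearly repeats quantile normalization, so fewer settings than listed could have changed these ratios.

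These probes sit at different places in their transcripts, and some sequences are shown because the results turn on which part of a gene was read. All are 60 bases, printed in the sense direction with positions on mm9, the build of the array files. The Lmod2 probe, at chr6:24554487-24554546 on the plus strand, and the Myoz2 probe, whose genomic span of 7042 bases at chr3:122709486-122716527 on the minus strand crosses an intron, were each the only probe of their gene. The brightest of 3 Tpm3 probes lies at chr3:89892985-89893044 on the plus strand.
Lmod2: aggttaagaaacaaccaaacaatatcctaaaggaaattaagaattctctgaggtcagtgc
Myoz2: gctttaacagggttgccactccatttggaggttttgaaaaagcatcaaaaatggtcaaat
Tpm3: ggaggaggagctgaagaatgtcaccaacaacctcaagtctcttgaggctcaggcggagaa

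The 15 thin filament genes had a median log2 ratio of 0.06, and 12 of them (80.0%) were above 0. Over all measured genes 56.4% were above 0. The thin filament count changed with the processing, to 9 with normexp, 8 with median scaling, 7 with quantile normalization and 6 with loess. Of all 19776 measured genes 9769 were above 0 with quantile normalization and 9505 with loess. Apart from Lmod2 and Actc1 the 15 genes lay within 1.5-fold. Acta1, the adult skeletal alpha-actin, read 421408 in control and 410814 in C26, a log2 ratio of 0.04 (error 0.20). Acta1 was thus near equal on the arrays where the other sarcomeric actin, Actc1, was lower in C26. Neb, the giant nebulin that spans the thin filament, gave 0.03 with its brightest probe. Tpm2, beta-tropomyosin, gave -0.02. The capping proteins of the pointed end, tropomodulin 1 (Tmod1) and tropomodulin 4 (Tmod4), gave 0.13 and 0.04. The pointed end was therefore read by 3 genes with unlike ratios, of which only Lmod2 passed 1.5-fold.

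Troponin T, I and C and the tropomyosins come as fast and slow genes. With the brightest probes, the slow gene had the higher ratio in each family. Fast troponin T (Tnnt3) read 331028 in control and 320496 in C26, a log2 ratio of 0.03, and slow troponin T (Tnnt1) read 61706 and 70881, a ratio of 0.27. Fast troponin I (Tnni2), the inhibitory subunit, read 354390 and 333289, a ratio of -0.02, and slow troponin I (Tnni1) read 5206 and 5603, a ratio of 0.18. Fast troponin C (Tnnc2), the calcium sensor, read 370000 and 366456, a ratio of 0.06, and its slow form (Tnnc1) read 4586 and 5288, a ratio of 0.28. The fast members were thus almost equal on the arrays and the slow members slightly brighter on the C26 array. The fast troponin probes were also much brighter than those of Tnni1 and Tnnc1. They belong to the 13 of the 44 genes, and 176 of all measured genes, that read above 100000. Those 13 genes had ratios from -0.10 to 0.30, and the part of signal level in the contrast was not tested. Among tropomyosins, which cover the myosin binding sites on actin, the fast alpha gene Tpm1 read 363077 and 372327, a ratio of 0.11, and the slow alpha gene Tpm3 read 8705 and 10789, a ratio of 0.38. Each of these log2 ratios has an error of 0.20, so no single gene of these families differed between the arrays by 2 errors.

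The 11 genes of the thick filament, its binding proteins, titin and the M-band had a median of 0.07. Of these 11, 7 were above 0 (63.6%, against 56.4% of all measured genes). That count was 5 with quantile normalization and 4 with loess. Mylpf, the fast regulatory light chain, read 6362 in control and 4830 in C26, a log2 ratio of -0.32 (error 0.20), the lowest of the group. Its 1 probe starts at position 69 of the transcript, close to the 5′ end. The slow regulatory light chain Myl2 read 46332 and 45501, a ratio of 0.05. The essential light chains were closer, at -0.0048 for the fast gene Myl1 (241210 and 228605) and 0.08 for the slow gene Myl3 (79027 and 79208). Mylk2, the kinase that acts on the regulatory light chain, was higher in C26 while its substrate Mylpf had a ratio below 0. The difference between these 2 ratios was not tested.

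Myosin binding protein C, which holds myosin heads near the thick filament, gave 0.16 for the fast gene Mybpc2 (131810 and 139687) and 0.19 for the slow gene Mybpc1 (32680 and 35392). Mybph, a smaller relative, gave -0.10. At the M-band, myomesin 1 (Myom1) read 22593 in control and 30718 in C26, a ratio of 0.52 (error 0.20), while myomesin 2 (Myom2), found mainly in fast fibres, gave 0.07. The 2 myomesins thus did not stand at the same ratio, and the difference between them was not tested. Ttn, the spring that sets the sarcomere's passive stiffness, gave -0.10 with its brightest probe.

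The 18 Z-disc and associated genes had a median of 0.12, and all 18 lay within 1.5-fold. The interquartile range of their ratios was 0.42, against 0.20 for the thin filament and 0.37 over all measured genes, whereas the full range was narrower, -0.49 to 0.53 against -0.85 to 0.94 for the thin filament. Myoz2, a calcineurin-binding myozenin of slow fibres, read 9278 in control and 12722 in C26, a log2 ratio of 0.53 (error 0.20). Myot, the actin-bundling myotilin, read 58857 and 80248, a ratio of 0.52. Fhl1, a LIM-domain protein, read 1775 and 2386, a ratio of 0.50. These 3 were the highest of the Z-disc genes. The lowest was Myoz3, a fast-fibre myozenin that read 11459 and 7782, a ratio of -0.49 (error 0.20), so that the family of Myoz2 and Myoz3 held both ends of the Z-disc range.

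The other 14 Z-disc genes lay between -0.28 and 0.46. Alpha-actinin 2 (Actn2), present in all fibres, gave 0.46 with its brightest probe and -0.16 with a dim one, and alpha-actinin 3 (Actn3), restricted to fast fibres, gave 0.30. Flnc, filamin C, gave 0.41, and Pdlim3, an alpha-actinin partner, gave 0.31. Of these 4, Actn2 alone exceeded 2 errors, with its brightest probe. This depended on the processing: Actn2 fell short at 0.31 with quantile normalization and 0.34 with loess, and Flnc passed 2 errors at 0.43 with normexp. Des, desmin, the intermediate filament that ties Z-discs together, was printed in 10 copies on each array. It read 24056 in control and 29332 in C26, and with the smaller error of 10 spots its ratio was 0.36 (error 0.06). Des was therefore the most precisely measured of the 44 genes within each array, 1.28-fold higher in C26, although its error says nothing of the spread between animals. Nor does that error cover the processing, as the ratio of Des was 0.19 with quantile normalization and 0.23 with loess.

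Among the remaining 9, values lay on both sides of 0. Synpo2l and Synpo2, actin-bundling proteins, gave 0.14 and 0.07. Myoz1, the main fast-fibre myozenin, gave 0.10, and Tcap, telethonin, which caps titin, gave 0.05. Ldb3 (ZASP, also called Cypher) gave -0.0083 and Smpx, a small protein of stretched muscle, gave -0.03. Xirp2, an actin-binding repeat protein, gave -0.10, Pdlim7 gave -0.17 and Fhl3 gave -0.28. None of these 9 differed from 0 by 2 errors.

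**Figure D2:**
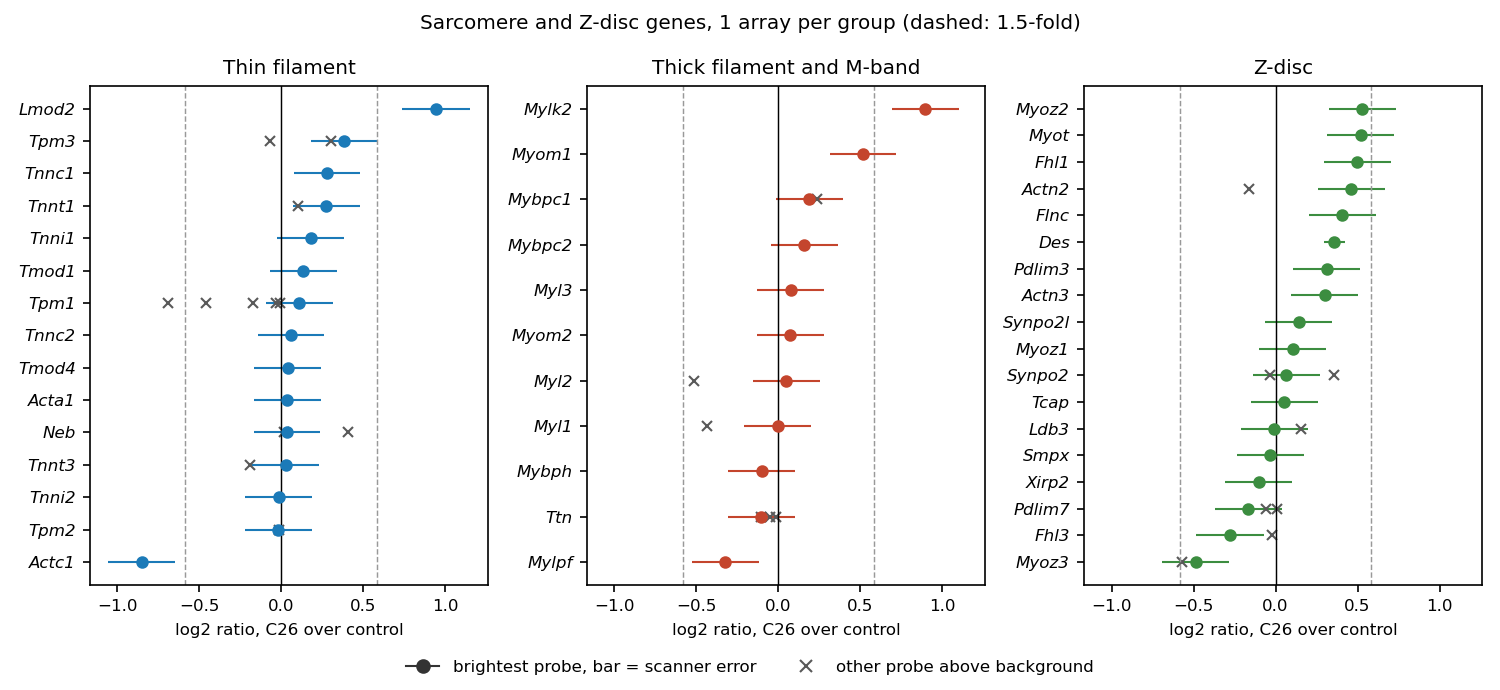
Log2 ratio of C26 over control (x axis) for each of the 44 genes, in panels for the thin filament, the thick filament with the M-band, and the Z-disc. Filled points with bars are the brightest probe and its scanner error, crosses are other probes well above background, and dashed lines mark 1.5-fold; most points lie between the dashed lines, and the crosses of Tpm1, Myl1, Myl2 and Actn2 lie left of their brightest probes.

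Set side by side in 8 families by their brightest probes, the fast isoform had the lower log2 ratio in all 8. The median difference, fast minus slow, was -0.23. The largest differences were -0.42 for myozenins (Myoz1 against Myoz2) and -0.37 for regulatory light chains (Mylpf against Myl2). These 2 exceeded the combined error of 0.29, and none exceeded 2 such errors. Tropomyosin stood at -0.27, troponin T at -0.25, troponin C at -0.22 and troponin I at -0.19. The essential light chains and myosin binding protein C stood at -0.08 and -0.03. These last 2 differences were above 0, at 0.043 and 0.16, with quantile normalization, so that 6 of 8 families then had the lower fast isoform. The light chains depended on the probes: with the mean over probes the essential light chains stood at -0.30, past the combined error, and the regulatory light chains at -0.090, within it. Tropomyosin depended on the probes as well. A Tpm3 probe of another transcript, which read 6919 in control and 6275 in C26, gave -0.07, below the brightest Tpm1 probe at 0.11. With the mean over probes tropomyosin stood at -0.42.

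Taken as groups, the 8 slow isoforms had a median of 0.23 and all 8 were above 0, where 56.4% of all measured genes were. The 10 genes listed as fast, the 8 partners with Actn3 and Mylk2, had a median of 0.08 with 7 above 0. That list leaves out Myoz3 (-0.49) and Myom2 (0.07), which are also made mainly in fast fibres, and it was not tried with them. With loess and with quantile normalization 6 of the 8 slow isoforms were above 0, and of the 10 fast isoforms 3 and 5. Of all 19776 measured genes 9505 and 9769 were then above 0. The families were chosen as textbook pairs, their genes share the same 2 arrays, and they are not replicates. The brightest probes of the partners share no run longer than 7 bases. The heavy myosins, which are not among the 44, gave -0.32 for Myh1 (IIx), 0.05 for Myh4 (IIb) and 0.22 for Myh2 (IIa), all fast, and 0.19 for the slow Myh7. Myh2 was thus not below Myh7.

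**Figure D3:**
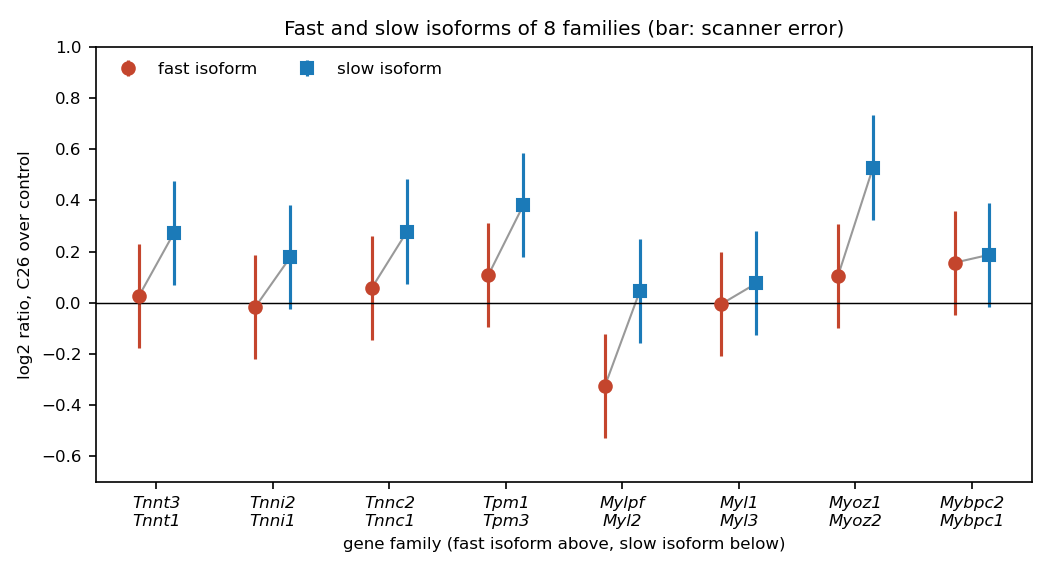
Log2 ratio of C26 over control (y axis) for the fast isoform (circle) and slow isoform (square) of 8 gene families, with the scanner error as bars. In each family the square lies above the circle, by 0.03 for myosin binding protein C to 0.42 for myozenins, and most bars overlap.

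Different probes of a gene did not always give the same value. Of the 17 genes with several probes, 16 had more than 1 well above background on both arrays, and in 8 of these 16 the probes differed in sign. Tpm1 is spliced into striated, smooth muscle and non-muscle isoforms, and its 6 probes ran from -0.69 to 0.11. Its pair of bright probes, which share a run of 46 bases, gave 0.11 and -0.0095. That gap of 0.12 within 1 stretch of transcript is smaller than the error of 0.20 of either probe. It comes from 1 pair and does not measure how far such probes stand apart in general. The 4 dim Tpm1 probes read 1227, 899, 354 and 146 on the control array and gave -0.17, -0.03, -0.69 and -0.46. All of them were below 0 in C26 over control where the brightest probe was above it.

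Light chain and troponin T probes also differed. The second Myl1 probe, whose span at chr1:66976853-66981100 on the minus strand crosses an intron, read 96312 in control and 67737 in C26, a log2 ratio of -0.44, against -0.0048 for the probe nearer the 3′ end. A second Myl2 probe, dim at 79.2 and 52.6, gave -0.52. The 2 Tnnt3 probes share 27 bases, in capitals below, from the end of 1 exon. The first, at chr7:149698467-149698526 on the plus strand, lies within that exon and gave 0.03, and the other, spanning chr7:149698500-149700262, reads on into a later exon and gave -0.19. The Tpm1 probe that gave -0.46 lies at chr9:66880274-66880333 on the minus strand.
Tnnt3, within 1 exon: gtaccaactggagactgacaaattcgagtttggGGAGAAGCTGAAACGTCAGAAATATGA
Tnnt3, across an intron: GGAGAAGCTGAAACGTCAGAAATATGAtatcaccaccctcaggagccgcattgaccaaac
Myl1, across an intron: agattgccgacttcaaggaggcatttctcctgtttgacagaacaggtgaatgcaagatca
Tpm1, probe at -0.46: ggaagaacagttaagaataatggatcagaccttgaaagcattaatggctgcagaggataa

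The giant proteins were read at several places. The 4 Ttn probes, 3 of them from position 33226 to 101578 of 1 transcript and the other at position 2094 of another, gave -0.02 to -0.11, and all 4 were below 0. The 3 Neb probes on the minus strand of chromosome 2 gave 0.03 at 52097549 to 52097608, 0.01 at 51992837 to 51992896 and 0.41 at 52077301 to 52077360. The last read 7670 in control and 9660 in C26 and is listed under another transcript than the first 2, which share a RefSeq transcript. The titin probes thus lay within 1 error of each other, while the third nebulin probe, which lies between the others on the chromosome, was higher than both.
Neb, probe at 0.03: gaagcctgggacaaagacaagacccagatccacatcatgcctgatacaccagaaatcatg
Neb, probe at 0.01: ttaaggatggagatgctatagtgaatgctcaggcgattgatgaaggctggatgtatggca
Neb, probe at 0.41: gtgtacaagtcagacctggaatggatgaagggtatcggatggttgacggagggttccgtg

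Further genes with probes of both signs were Tpm3, Actn2, Ldb3, Pdlim7 and Synpo2. Tpm3 gave 0.38 and 0.30 with probes at transcript positions 681 and 227 and -0.07 with a probe at 1853 of another transcript. Actn2 gave 0.46 with its bright probe and -0.16 with a dim one (32.5 and 27.6) listed under a cDNA clone. Ldb3 gave -0.0083 and 0.15 from probes under different transcript variants, Pdlim7 between -0.17 and 0.01, and Synpo2 between -0.04 and 0.36, the last from a probe that read 37.0 and 45.0. Conversely, both probes of Myoz3 were below 0, at -0.49 and -0.57, both of Mybpc1 above 0, at 0.19 and 0.23, and both of Tnnt1 above 0, at 0.27 and 0.10. When all probes of a gene were averaged, 4 of the 44 genes had the other sign.

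Promoter sequence was not used by the symbol list. RefSeq promoter sequences (GRCm38.p6) were found for 34 of the 44, as 41 promoters, and the 250 bases before each start were searched on both strands. None was found for Actn3, Mylk2, Myom2, Myot, Myoz1, Myoz3, Neb, Tcap, Tnni2 and Tnnt3. The motif values therefore leave out Mylk2 (0.90) and Myoz3 (-0.49), among the highest and lowest ratios. The CArG box, the site of serum response factor, was present in 17.1% of the 41 (6 of 34 genes), against 1.47% of 32851 promoters of all genes. The MEF2 site, bound by the myocyte enhancer factors, was present in 12.2% (5 of 34 genes), against 0.51%, so most of the 34 genes had neither, and these shares were not tested. The E-box CANNTG, bound by MyoD and its relatives among others, was present in 78.0% against 66.2%, and the letters TATAAA in 17.1% against 12.4%. A match describes letters in this window and is not evidence that a factor binds.

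The 11 genes with a CArG box or MEF2 site had log2 ratios from -0.85 to 0.53, with a median of 0.07, and the other 23 from -0.32 to 0.94, with a median of 0.13. Apart from Actc1, the lowest of the 11 were Ttn and Xirp2, both at -0.10. The promoters of the paired sarcomeric actins are shown because each carries 1 CArG box, in capitals, at 73 bases before the start in Acta1 and 47 in Actc1, while their ratios were 0.04 and -0.85. The Myoz2 promoter carries 1 MEF2 site, in capitals, 33 bases before the start. Lmod2, the gene with the highest ratio, has no exact match to either in this window. The windows are chr8:123894776-123895025 (minus strand, Acta1), chr2:114052876-114053125 (minus strand, Actc1), chr3:123034988-123035237 (minus strand, Myoz2) and chr6:24597521-24597770 (plus strand, Lmod2).
Acta1: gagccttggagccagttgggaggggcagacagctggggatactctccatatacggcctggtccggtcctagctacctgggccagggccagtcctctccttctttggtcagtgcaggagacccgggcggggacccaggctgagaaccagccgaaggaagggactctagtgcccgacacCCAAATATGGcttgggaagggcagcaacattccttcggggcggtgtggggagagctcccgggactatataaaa
Actc1: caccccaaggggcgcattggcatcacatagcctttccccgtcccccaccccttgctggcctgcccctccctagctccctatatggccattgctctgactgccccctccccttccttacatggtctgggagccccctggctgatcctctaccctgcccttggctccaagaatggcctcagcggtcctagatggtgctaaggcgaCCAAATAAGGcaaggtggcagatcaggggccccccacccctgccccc
Myoz2: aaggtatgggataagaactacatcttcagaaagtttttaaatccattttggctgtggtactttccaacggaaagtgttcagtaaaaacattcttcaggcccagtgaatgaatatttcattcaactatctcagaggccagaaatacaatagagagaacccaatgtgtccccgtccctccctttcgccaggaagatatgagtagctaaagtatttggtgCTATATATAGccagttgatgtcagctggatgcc
Lmod2: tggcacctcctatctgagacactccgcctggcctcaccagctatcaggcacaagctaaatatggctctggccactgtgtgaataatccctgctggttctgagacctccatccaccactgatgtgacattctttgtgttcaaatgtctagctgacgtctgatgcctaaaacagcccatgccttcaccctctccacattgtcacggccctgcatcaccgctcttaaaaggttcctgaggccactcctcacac

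A further list of 57 sarcomere, Z-disc and filament-binding genes outside the 44 was set beside them. Of these, 52 were measured, with a median of 0.09, and 31 were above 0 (59.6%, against 56.4% of all measured genes). On the high side in C26, 6 passed 1.5-fold (background 4.34%), while none did on the low side (background 4.82%). Those counts changed with the processing, to 4 high and 2 low with quantile normalization, 4 and 1 with normexp and 4 and 3 with loess, and the median was -0.03 with quantile normalization. Mylk4, a kinase of the same family as Mylk2, was the 1 gene past 2-fold, reading 1108 in control and 2208 in C26, a log2 ratio of 1.07 (error 0.20). With quantile normalization and with the deposited table Mylk4 stood at 0.99 and no gene of the list passed 2-fold. Ankrd2, a stretch-responsive ankyrin repeat protein of the I-band, read 6649 and 12495, a ratio of 0.98. The lowest were Lmod3, the leiomodin of skeletal muscle, at -0.58 (16729 and 10647), and Kbtbd13, a ubiquitin ligase adaptor tied to nemaline myopathy, at -0.56, whose second probe gave 0.23. The 2 leiomodins measured thus stood on opposite sides of 0, Lmod2 at 0.94 and Lmod3 at -0.58.

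**Figure D4:**
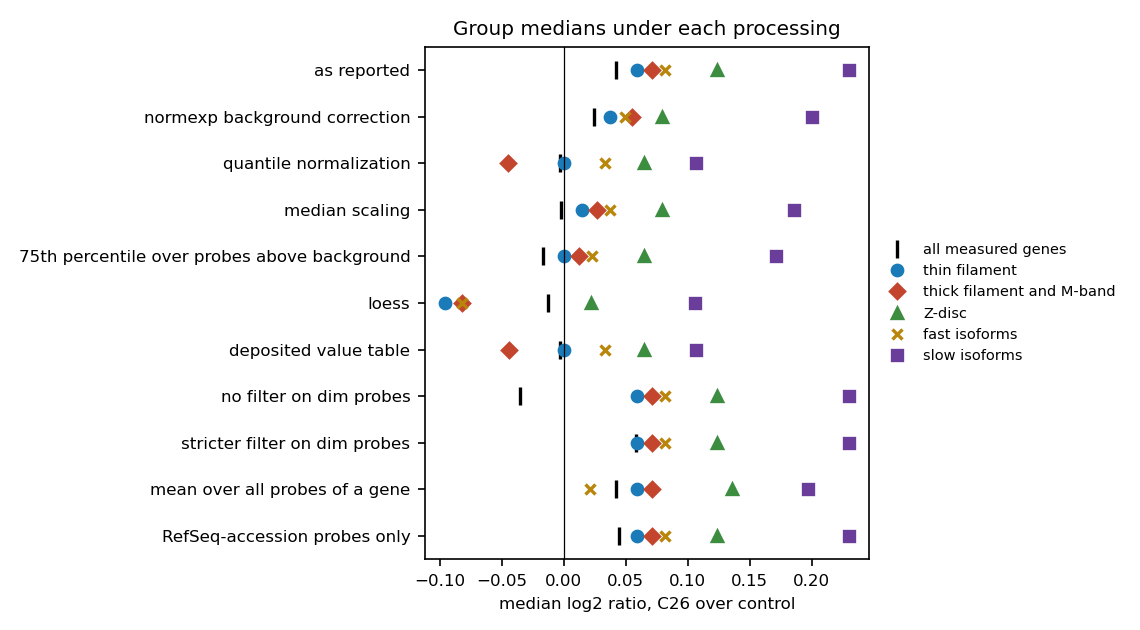
Median log2 ratio of C26 over control (x axis) for the thin filament, the thick filament with the M-band, the Z-disc, the fast and slow isoforms and all measured genes (bars), under each processing (y axis). The slow isoform median lies right of the fast one in every row, 0.23 against 0.08 as reported, and the thin filament, thick filament and fast isoform medians lie left of 0 with loess.

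As a check of the tissue, all 10 skeletal muscle fibre markers were well above background on both arrays, with a summed scaled signal of 4721 in control and 4847 in C26. Of the 7 cardiac markers, 3 were well above background on both arrays, Myh6 (604 and 566), Tnnt2 (275 and 272) and Nppa (33.5 and 35.3). The others, Myl7, Nppb, Ryr2 and Tnni3, were not well above background on either array. The smooth muscle and pericyte list, whose cells also make Des, Flnc, Synpo2 and tropomyosins, summed to 234 and 218 over 11 of 11 genes. Fibroblast markers summed to 614 and 407 (8 of 8 genes, all with ratios below 0) and macrophage markers to 29.3 and 21.5 (7 of 7, all below 0). Erythroid markers summed to 841 and 1228 (4 of 7 above background on both arrays), endothelial markers to 43.3 and 55.6 (7 of 7), adipocyte markers to 105 and 146 (5 of 6), and lymphocyte markers to 15.3 and 17.0 (5 of 6, median log2 ratio -0.08). Neutrophil markers summed to 128 and 112 (5 of 6), a sum carried by the bright Csf3r probe (-0.26), while their median was 0.36 and S100a8 and S100a9 stood at 2.46 and 2.35. A sum follows its brightest probes, whose share of the RNA is not known. Satellite cell and myoblast markers summed to 5.07 and 11.1 (5 of 6, median -0.20). Among them Myod1 and Myog were past 2-fold higher and Mymx past 2-fold lower. Mymx was dim, at 46.7 in control and 21.5 in C26, with an error of 0.32. Its log2 ratio moved as far as -0.38 under the alternative settings, short of 1.5-fold. That of Myog fell as low as 0.98, just short of 2-fold, while Myod1 stayed past 2-fold. The 6 genes named from these last lists were chosen after their values were seen. The part of these cell types in the ratios above was not tested.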

How the data were processed

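Skeletal muscle RNA was measured on 1 control and 1 C26 array. The deposited values are linear spot intensities. Per the file headers, Feature Extraction 10.7.1.1 made them (the submitters' processing notes list 9.5.1.1) on mm9, with background subtraction, detrending and surrogates for spots too low to measure. A deposited intensity table with equal medians (19.75) in both columns served as an alternative; the sources used here do not say how the authors made it, but its log2 ratios for the probes described were within 0.0010 of those after quantile normalization.

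Outlier spots were dropped (110 control, 91 C26), the spots of each of 55680 probes averaged on the log2 scale, and each array scaled to its 75th percentile. No spot was saturated, and 50.4% and 53.8% of spots were well above background. Of the probes, 30816 were matched by accession or symbol to the GRCm38.p6 gene table, used for names only. Among 263 probes in 8 or more usable copies, the SD between copies of a ratio was 0.07. The number of arrays limits the precision. The processing was tested on simulated data.

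The members and lists were chosen with earlier results of these data known. Genes described in full were those past 1.5-fold, the isoform pairs and those whose probes differed in sign; from the further list, those past 2-fold and the 2 highest and lowest. Python 3.11.15, numpy 2.4.6, pandas 2.3.3, statsmodels 0.14.6, R 4.3.3 and limma 3.58.1 were used. Alternatives were normexp (offset 50), quantile, median and 75th percentile above background scaling, loess (span 0.3), no filter or a signal minimum of 100, the mean over probes, the deposited table, and, added after seeing the data, RefSeq-accession probes only.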

Additional observations from a re-analysis of the deposited data

How the results depend on the processing

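No member passed 2-fold under any of the 10 alternatives, and the counts past 1.5-fold were 2 higher and 1 lower except with loess, where 2 were lower because Myoz3 then stood at -0.60. With loess the medians were -0.062 for all 44 genes, -0.10 for the thin filament, -0.082 for the thick filament and M-band, 0.022 for the Z-disc, -0.082 for fast and 0.11 for slow isoforms. With quantile normalization and with the deposited table, which gave the same rounded values for all but the essential light chains, the thick filament median was -0.045 and that of slow isoforms 0.11, and fast minus slow was -0.15 for troponin T, -0.11 for troponin I, -0.32 for myozenins, 0.16 for myosin binding protein C and, for essential light chains, 0.043 with quantile normalization and 0.044 with the table. With normexp it was -0.15 for troponin C. With the mean over all probes it was -0.42 for tropomyosin, -0.090 for regulatory light chains and -0.30 for essential light chains. Of the values for counts, groups and pairs under the alternatives, the other 155 kept their count or moved by less than 0.07, the SD between copies of a ratio. Many of these could not move. Median scaling and the 75th percentile above background cancel in fast minus slow, and the filters and RefSeq probes kept each gene's brightest probe. The number 155 is therefore no measure of stability. Loess changed the sign of 11 of the 44 genes, the 75th percentile above background that of 7, and normexp that of 5. Median scaling and the mean over probes changed that of 4 each. Quantile normalization and the deposited table counted 7 each, among them Acta1 and Tnnc2, which did not turn negative but stood at exactly 0. By construction median scaling shifts every ratio by -0.044 and the 75th percentile above background by -0.059, so the signs they changed were of genes just above 0. The cause of the other changes was not tested. No paired analysis was possible because each group holds 1 array.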
